A study of Xenopus laevis with 8 samples.

Results

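The 200 probe sets described here are those that differed most between 4 numbered sets of Xenopus laevis foregut explants while staying alike within each set. They were chosen from 15491 probe sets (the array's groups of short oligonucleotides, each read out as 1 value) on the values themselves. A probe set was taken if its mean log2 intensity over the 8 arrays was above 8 and if the array with mesoderm and the array alone of the same set differed by less than 0.4 on the log2 scale in each of the 4 sets. Of 5246 probe sets above the level limit, 2269 met both limits, and the 200 with the largest SD of the 4 set means were kept, which is 8.81% of the 2269. A set mean is the mean of the 2 arrays of that set. The choice used every set difference given below for these 200, so those differences are a description and carry no test.

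Xenopus laevis is the African clawed frog. Explants of its foregut were dissected at stage 15 and grown to stage 23 in modified Barth's saline at 0.5X, either whole, mesoderm included, or as endoderm only, and each of the 2 conditions had 4 samples, numbered set 1 to set 4. In the intact explants the mesoderm was present throughout the culture, and the endoderm was separated from it at stage 23, whereas the endoderm alone was separated at the start. Total RNA (5 µg, extracted with Trizol) was labelled as biotin cRNA and hybridised to 1 Affymetrix array per sample. The labels name no transgene, mutation or drug in either condition. The labels do not say whether a set number stands for a clutch of eggs, a day of dissection or a day of hybridisation, so the source of a set difference is unknown, and p-values measure only the spread between these samples. In such bulk samples fewer cells of a type and less RNA per cell cannot be told apart.

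Foregut endoderm is the sheet of cells that gives rise to the liver, pancreas, lungs and stomach, and signals from the mesoderm beside it, among them BMP and FGF ligands, help to decide which of these organs its cells form. Cells of early frog embryos also divide and make ribosomes for their own protein synthesis. Xenopus laevis carries paired copies (L and S) of many genes from an old genome duplication, and an array may hold a probe set for each.

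Of the 200 probe sets, 79 had a gene name (75 different names), 54 had only a clone-type name and 67 had no entry in the annotation. They represented 193 transcript clusters of the array design, and 17 carried a suffix that marks probes shared by several transcripts. The SD of the 4 set means ranged between 0.49 and 2.56 (median 0.58), against a median of 0.26 over the 2269 probe sets within both limits. The highest set exceeded the lowest by a median of 1.30 on the log2 scale, which is 2.46-fold, and by 1.88-fold to 43.7-fold over all 200. Differences between the 2 arrays of a set had a median size of 0.17. The last probe sets inside the limit were MGC83816 (SD 0.494), lrpprc (0.493) and acvr1 (0.493), and the first outside were a probe set without a name (0.493), hnrnph1 (0.492) and cnbp (0.492), so the boundary at rank 200 separated nearly equal values.

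These probe sets are not the ones that varied most between sets without regard to condition. Ranked by the same SD without the limit on the difference within a set, the first 200 shared only 19 with those described here, and 181 had failed the limit. Of the 5246 probe sets above the level, 43.1% failed it in set 4, against 8.16% in set 1, 15.0% in set 2 and 13.9% in set 3. The difference between set 4's 2 arrays thus removed more probe sets than that of any other set, and the members are best read as stable set differences among probe sets that were alike in both conditions.

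No 2 sets stood together against the other 2 throughout. Each probe set was assigned to a split by sorting its 4 set means and dividing them at the largest gap, and 13 of the 14 possible splits had members. One set stood apart from the other 3 in 146 of the 200 (73.0%), close to the 73.8% of the 2269 probe sets within both limits, and 54 divided into pairs of sets. Set 3 alone was low in 35 probe sets (17.5%, against 11.4% of the 2269), which was the most frequent pattern. Set 1 alone was low in 27 (13.5%, against 9.65%) and alone high in 22 (284 of the 2269). Set 2 alone was low in 15 (7.5%, against 3.75%) and alone high in another 15, where its share fell below that of the 2269 (7.5%, against 14.9%). Set 4 alone was low in 18 (9.0%, against 12.6%) and high in 3 (1.5%, against 2.64%), and set 3 alone was high in 11 (5.5%, against 6.39%), all below the shares of the 2269.

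Pairs of sets were less frequent. Sets 1 and 3 were above sets 2 and 4 in 17 probe sets (8.5%, against 5.51% of the 2269) and below them in 12 (6.0%, against 5.02%). Sets 1 and 2 were above sets 3 and 4 in 13 (6.5%, against 7.4%) and below them in 9 (4.5%, against 2.12%). Sets 2 and 3 were above sets 1 and 4 in 3 (1.5%, against 4.72%), with 0 in the opposite direction. The root mean square difference between set means over the 200 was largest between sets 2 and 3 (1.13) and smallest between sets 3 and 4 (0.87), with 0.89 for sets 2 and 4, 0.93 for sets 1 and 3, 0.95 for sets 1 and 4 and 0.97 for sets 1 and 2. Over the 2269 this difference was also largest between sets 2 and 3 (0.5). It was smallest between sets 2 and 4 and between sets 3 and 4 (0.43 each). Sets 2 and 3 differed at least 2-fold in 87 of the 200 probe sets (4.5% of the 2269) and sets 2 and 4 in 44 (2.38%). Sets 1 and 2 were highest in 32.0% and 33.0% of the members, against 30.3% and 36.7% of the 2269, and sets 3 and 4 were lowest in 31.5% and 27.0%, against 28.7% and 35.5%. These shares were near those of the 2269, except that set 4 was lowest less often.

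**Figure D1:**
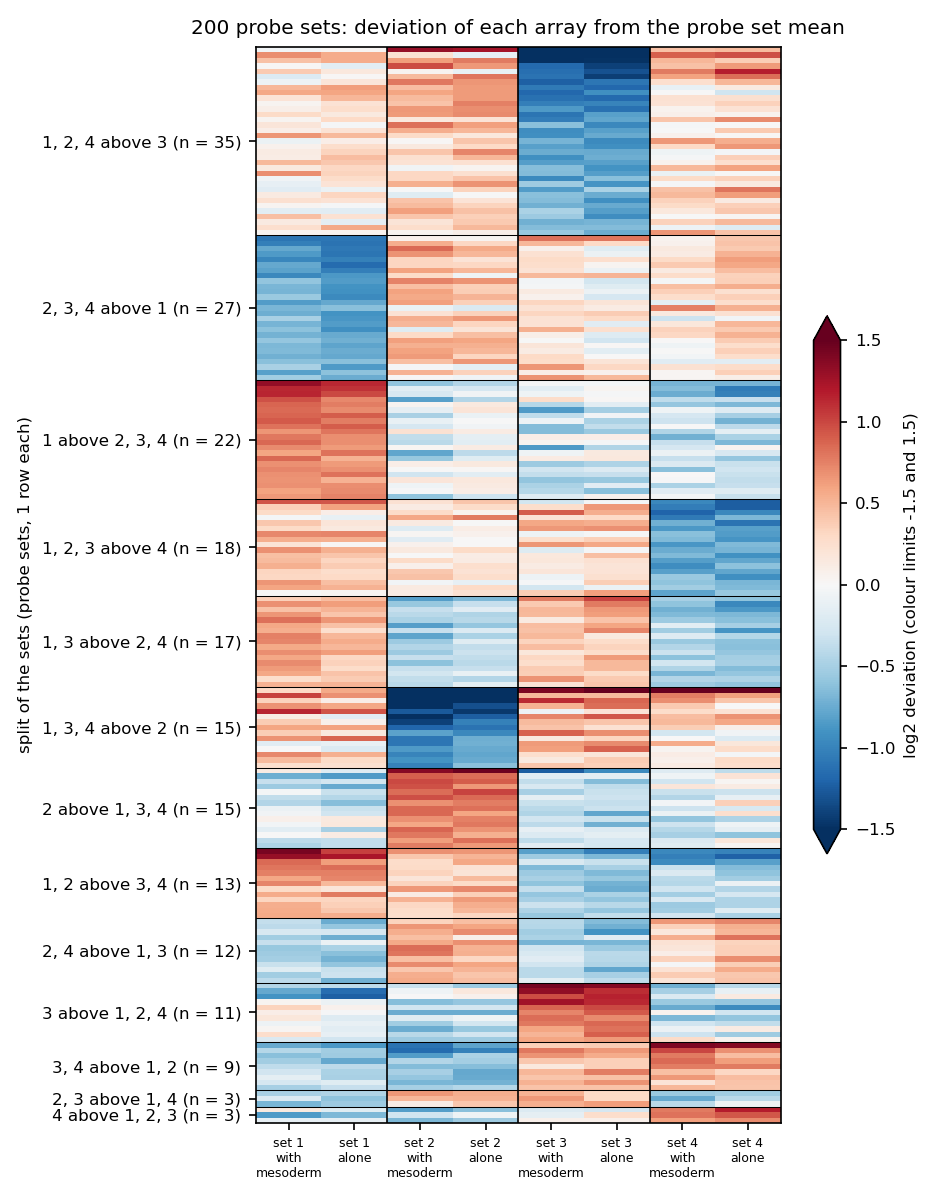
Log2 deviation of each of 8 arrays (columns, the array with mesoderm left of the array alone in each set) from the mean of its probe set, for the 200 probe sets (1 line each), grouped by how the 4 sets divide. The 2 columns of a set have like colours because the choice required it, and the block in which set 3 alone is low is the tallest, with 35 probe sets.

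**Figure D2:**
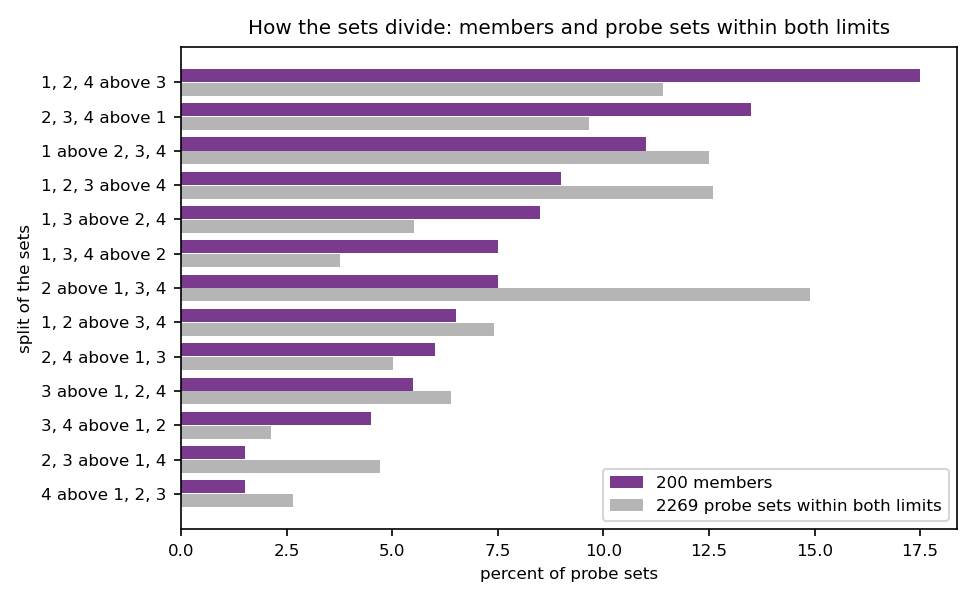
Percent of the 200 members (purple) and of the 2269 probe sets within both limits (grey) in each split of the sets. The members had the larger share where set 3 alone was low (17.5%, against 11.4%) and the smaller share where set 2 alone was high (7.5%, against 14.9%).

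All 200 passed limma's moderated F test over the 4 sets (adjusted p under 0.05), and so did 30.7% of all 15491 probe sets. The members' count follows from how they were chosen and nothing is read from it. The number called in the whole table, 4763, depended on which set was included: it was 1463 without set 1, 1650 without set 2, 3058 without set 3 and 9716 without set 4.

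Among the signalling genes, the 2 secreted ligands with large set differences moved in opposite directions in set 3. After ddx46, the named gene with the largest difference was shh, which encodes Sonic hedgehog, a ligand made by notochord, floor plate and gut endoderm. Its log2 intensity was 8.92, 8.45, 6.60 and 9.12 in sets 1 to 4 with mesoderm, and 8.78, 8.10, 6.63 and 9.19 in sets 1 to 4 alone. Set 3 was low in both conditions, and its highest array lay well below the lowest of the other 6. The highest set mean (set 4, 9.15) exceeded the lowest (set 3, 6.61) by 5.81-fold.

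The gene bmp2, which encodes a BMP ligand that signals through SMAD proteins, was highest in set 3. It measured 7.66, 7.77, 9.54 and 7.38 in sets 1 to 4 with mesoderm, and 7.72, 7.55, 9.47 and 7.70 in sets 1 to 4 alone. The other 6 arrays overlapped with each other, and both arrays of set 3 were above them. A second probe set of the same bmp2 transcript cluster had set means of 7.15, 7.26, 8.35 and 6.99, again highest in set 3, while a probe set of another cluster had 7.56, 6.93, 7.31 and 6.35 and was highest in set 1.

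Receptors and transducers divided the sets in other ways. The gene acvr1, for a type I receptor of the BMP branch, was low in set 4, with set means of 8.75, 8.91, 9.23 and 8.06. The chemokine receptor gene cxcr4, which guides migrating cells in many embryos, was low in the same set, with set means of 9.59, 9.51, 10.09 and 8.70. The insulin-like growth factor receptor gene igf1r was instead low in set 2, with 9.07, 8.37, 9.92 and 9.34. Other probe sets of these receptors ordered the sets differently: an acvr1 probe set of another cluster was highest in set 1 (9.18, 8.53, 8.98 and 8.28), and of 4 igf1r probe sets of the same cluster 2 were highest in set 1 and lowest in set 2, and 2 lowest in set 1.

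The shared BMP and activin transducer gene smad4 was lowest in set 1 and highest in set 3. It measured 7.23, 8.39, 9.16 and 8.38 in sets 1 to 4 with mesoderm, and 7.25, 8.37, 9.13 and 8.74 in sets 1 to 4 alone. Set 1 was below and set 3 above every other array, a 3.75-fold difference of set means. The tyrosine kinase gene src paired the sets differently, with sets 1 and 3 (9.95 and 10.05) above sets 2 and 4 (9.22 and 8.68), although 3 src probe sets of other clusters had set 3 alone highest. The kinase gene map2k1, which acts in the ERK cascade and is listed in the file under the name mek-2, was high in set 2 (9.29, against 8.38, 7.95 and 8.63 in sets 1, 3 and 4).

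Of these, shh, bmp2 and smad4 fell in the list of Wnt, BMP, FGF, Notch, Hedgehog and retinoid genes drawn up by symbol, in which 10 probe sets met both limits. Of the 37 listed probe sets above the level that were no members, limma called 7 higher and 2 lower in set 3 relative to the mean of the other 3 sets, against 5.25% and 6.72% of all probe sets. In set 4 it called 1 higher and 7 lower, against 3.42% and 4.73% of all probe sets. In set 1 the calls were 7 higher and 1 lower, against 8.22% and 8.3% of all. In set 2 they were 5 higher and 5 lower, against 10.6% and 9.65% of all. Of all 5046 probe sets above the level that were no members, 489 were higher and 734 lower in set 1. The counts were 791 and 320 in set 2, 286 and 382 in set 3, and 160 and 313 in set 4. The list's median deviation from the mean of the 4 sets stayed small in every set (0.01, -0.14, 0.06 and -0.13 in sets 1 to 4, against -0.03, 0.14, -0.01 and -0.04 over all probe sets above the level).

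In the list of transcription factor families, 13 probe sets met both limits and 2 were members, hnf4a and tbx3 (15.4%, against 8.75% of all named ones). The gene hnf4a, for a nuclear receptor of liver and gut, was low in set 3. It measured 11.06, 11.14, 10.18 and 11.30 in sets 1 to 4 with mesoderm, and 11.26, 11.30, 10.08 and 11.65 in sets 1 to 4 alone. Set 3 lay below all other arrays, 2.54-fold under set 4, although a dimmer hnf4a probe set of the same cluster had 5.65, 6.28, 6.18 and 6.90 and was lowest in set 1.

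Set 3 was high for tbx3, a T-box repressor gene, which measured 9.64, 9.29, 10.30 and 8.79 in sets 1 to 4 with mesoderm, and 9.27, 9.40, 10.18 and 8.87 in sets 1 to 4 alone. Its probe set in another cluster had set means of 8.52, 8.46, 9.02 and 8.16, with the same sets highest and lowest and a difference between them of 0.86 in place of 1.41. The gene max, for the dimerisation partner of MYC, was high in set 3 and low in set 2 (8.22, 7.44, 9.01 and 8.06). A max probe set of another cluster differed less between these sets (0.26, against 1.57), with 8.98, 8.71, 8.98 and 8.85. Of the 16 measured genes in a list of foregut and liver markers, hnf4a was the only member, and shh was the only one of 7 measured notochord markers. None of 12 measured neural markers was above the level limit, whereas the endodermal genes foxa1 (mean log2 11.67) and darmin (13.31) were bright. The 7 notochord genes, of which 2 were above the level limit, had a median deviation of 0.23 in set 3, where shh was lowest. Most of the 13 marker lists also had their highest median in set 3. The summed intensity of the 7 notochord genes was lowest in set 3 in both conditions (894 with mesoderm and 886 alone). This sum includes shh, the brightest of them, which was chosen for its set difference. The low sum is therefore no separate sign of the other notochord genes, and nothing is read from it. The part of other tissues in the shh difference was not tested.

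**Figure D3:**
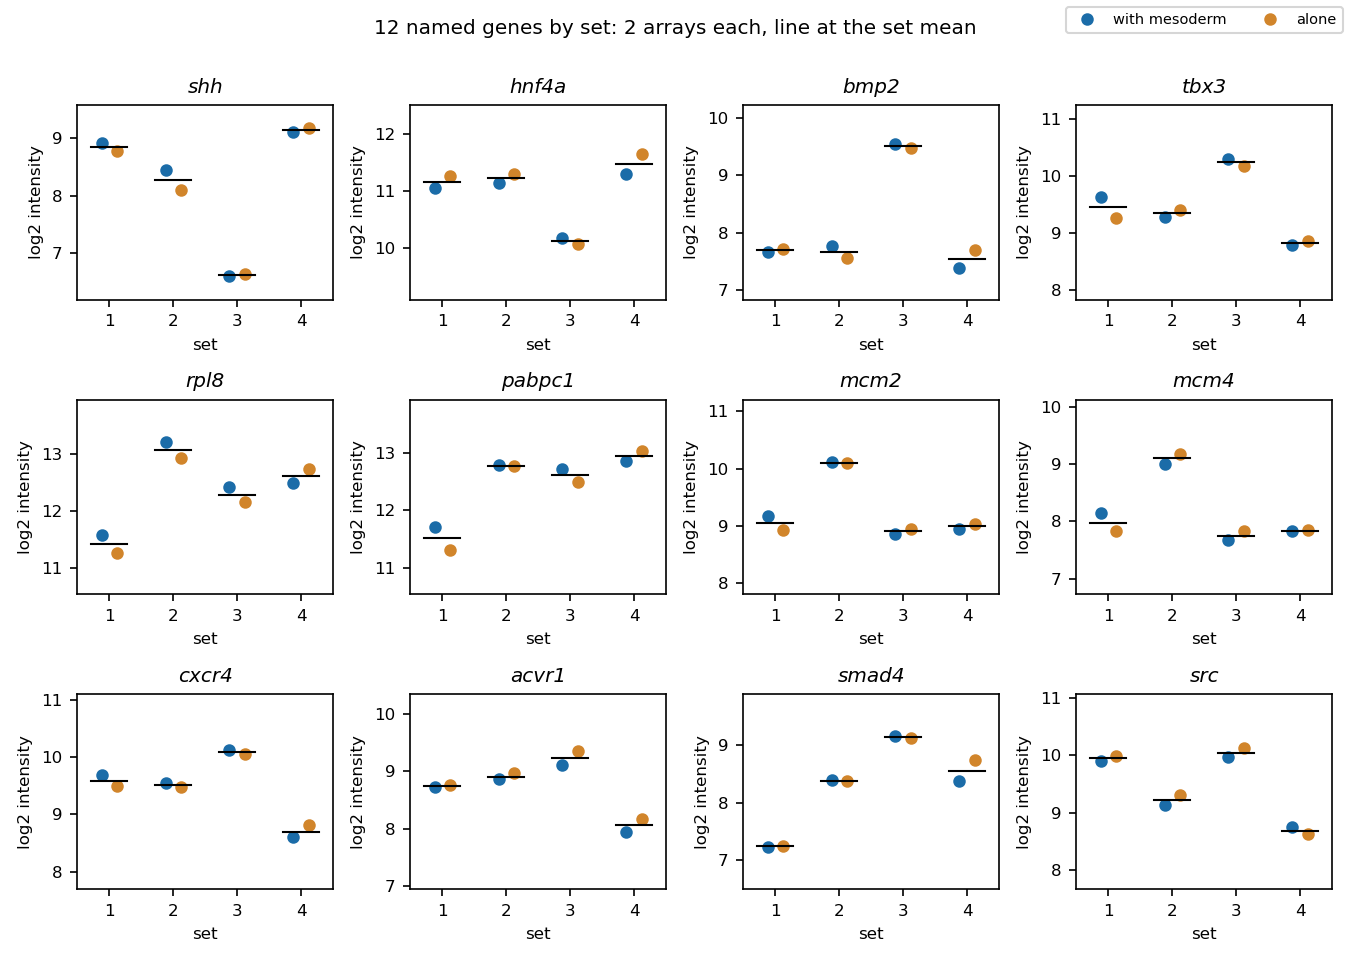
Log2 intensity of 12 named genes by set (points: the array with mesoderm, blue and left, and the array alone, orange and right, with the line at the set mean; each panel spans the same height on the log2 scale). Set 3 is low for shh and hnf4a and high for bmp2 and tbx3, set 1 is low for rpl8, pabpc1 and smad4, and set 2 is high for mcm2 and mcm4.

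The function list with the most members was the ribosome, whose genes were low in set 1 and high in set 2. Ribosomal proteins make up the particle that translates messenger RNA, and the genes for them are usually regulated as a group. In all, 9 probe sets for 8 ribosomal protein genes were members (rpl4, rpl7a, rpl8, rpl34, rps2, rps3, rps10 and rps27), which is 30.0% of the 30 that met both limits, against 8.75% of all named ones. All 9 were lowest in set 1, and 7 were highest in set 2. The gene rpl8 measured 11.58, 13.20, 12.42 and 12.49 in sets 1 to 4 with mesoderm, and 11.27, 12.92, 12.16 and 12.74 in sets 1 to 4 alone. Set 1 was below and set 2 above all other arrays, and the differences of the other 8 were between 2.19-fold (rpl34) and 2.95-fold (rps3).

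Ribosomal probe sets outside the members had the same lowest and highest sets. Of 47 such probe sets above the level, 39 (83.0%) were lowest in set 1, against 32.9% of all 5046 that were no members, and 39 were highest in set 2, against 41.8%. Their median deviation from the mean of the 4 sets was -0.48, 0.44, -0.03 and 0.15 in sets 1 to 4, against -0.03, 0.14, -0.01 and -0.04 over the 5046. Other probe sets with a mean log2 above 11, which are similarly bright, had medians of -0.09, 0.13, 0.03 and -0.03. Of the 5046, limma called 734 lower and 489 higher in set 1 than the mean of the other 3 sets. In set 2 it called 791 of them higher and 320 lower. Over all 15491 probe sets, at any level, it called 1286 lower (8.3%) and 1273 higher (8.22%) in set 1. The counts over all in set 2 were 1638 higher (10.6%) and 1495 lower (9.65%). Of the 47, it called 31 lower in set 1 and 0 higher (40 and 0 at an unadjusted p under 0.05). It called 28 of the 47 higher in set 2 and 0 lower (37 and 1 unadjusted). The calls in set 1 numbered 16 without set 2, 31 without set 3 and 40 without set 4, and 0 when either array of set 1 was left out. Those in set 2 numbered 3 without set 1, 24 without set 3 and 42 without set 4, and 0 when either array of set 2 was left out; the cause of these changes was not tested. Over all 56 ribosomal probe sets above the level, members included, the 2 arrays of sets 1 and 2 gave close values, with medians of -0.56 and 0.51 in sets 1 and 2 with mesoderm and -0.57 and 0.41 in sets 1 and 2 alone. Those of set 4 did not (0.01 with mesoderm, 0.36 alone).

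Other genes of protein synthesis were low in set 1 as well. The poly(A)-binding protein gene pabpc1, whose product binds the tail of messenger RNA and aids translation, had set means of 11.51, 12.78, 12.61 and 12.95. The elongation factor gene eef2.1 had 11.32, 12.76, 11.89 and 12.21, the initiation factor gene eif3d (eif3s7 in the file) 11.18, 12.35, 11.97 and 12.29, and the arginyl-tRNA synthetase gene rars1 8.70, 9.81, 8.78 and 9.33. All 4 were lowest in set 1, although rars1 was nearly as low in set 3 and divided the sets with 2 and 4 above 1 and 3. Among translation factors and tRNA synthetases, 61 probe sets above the level were no members. Their median deviation was -0.33 in set 1 and 0.34 in set 2, and limma called 26 lower and 2 higher in set 1, and 18 higher and 1 lower in set 2. Of all 5046 probe sets above the level that were no members, 734 were called lower and 489 higher in set 1. In set 2, 791 of them were called higher and 320 lower. Over all 15491 probe sets, at any level, 8.3% were called lower and 8.22% higher in set 1. In set 2, 10.6% were called higher and 9.65% lower. The 18 became 1 without set 1 and 10 without set 3, and the 26 became 17 without set 2. Without either array of the set concerned, both counts were 0.

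Ribosome production genes were split over 2 patterns. The gene brix1, for a factor of large-subunit assembly, was low in set 1 (9.47, 10.77, 10.54 and 10.34). The gene polr1a, for the largest subunit of RNA polymerase I, which transcribes ribosomal RNA, was high in sets 2 and 4 (8.14, 9.34, 8.24 and 8.93). Genes of the respiratory chain and ATP synthase had 0 members, but only 9 of their probe sets met both limits. With 8.81% of all such probe sets being members, nothing is read from this 0. Their 34 probe sets above the level had medians of -0.53 in set 1 and 0.36 in set 2. Limma called 19 of them lower in set 1 and 0 higher (26 and 2 at an unadjusted p under 0.05). Of all 5046 probe sets above the level that were no members, it called 734 lower and 489 higher. Over all 15491 probe sets, at any level, the counts were 1286 lower (8.3%) and 1273 higher (8.22%). The 19 became 11 without set 2 and 0 without either array of set 1. Low values in set 1 were not limited to these lists. Redox and detoxification genes had a median of -0.46 there, chaperones -0.31 and immune genes -0.28. Splicing genes had -0.04, the signalling list 0.01 and the transcription factor families 0.08. Of the 2107 named probe sets above the level that were no members, limma called 388 lower and 161 higher in set 1, and 39.0% were lowest there.

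Some control probe sets were low in set 1, and others were not. The beta-actin probe set at the 5′ end read 8.14 with mesoderm and 8.11 alone in set 1, and between 9.66 and 12.38 in the other 6 arrays, whereas the 3′ probe set read between 10.29 and 11.06 in all 8. The difference of 3′ minus 5′, which is larger where transcripts are shorter at their 5′ end, was 2.32, -0.61, -0.58 and 1.00 in sets 1 to 4 with mesoderm, and 2.43, -0.01, 0.64 and -1.32 in sets 1 to 4 alone. For gapdh the same difference was lowest in set 1 (2.42 with mesoderm, 2.29 alone, against 3.05 to 3.82 in the other 6 arrays). The gapdh 5′ probe set, however, was dim in all 8 arrays (5.12 to 5.96). The gapdh 3′ probe set was itself low in set 1 (7.73 with mesoderm, 7.41 alone, against 8.60 to 9.30 in the other 6). The smaller gapdh difference in set 1 thus came with a lower 3′ value, not a higher 5′ value. The part of RNA quality in the low values of set 1 was not tested.

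**Figure D4:**
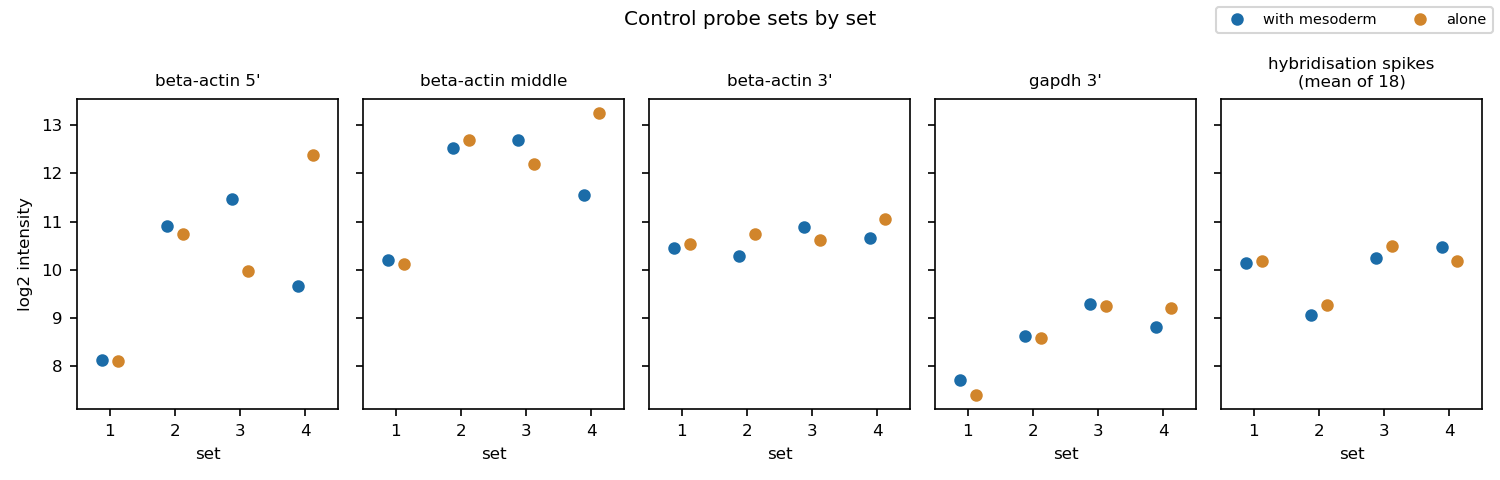
Log2 intensity of control probe sets by set (blue, left: with mesoderm; orange, right: alone). Set 1 is low at the beta-actin 5′ end (8.14 and 8.11) while the 3′ end reads between 10.29 and 11.06 in every array, and set 2 has the lowest mean of 18 hybridisation spike probe sets (9.07 and 9.28).

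Further genes were low in set 1. The proteasome subunit gene psma6 measured 7.79, 9.09, 9.06 and 9.06 in sets 1 to 4 with mesoderm, and 7.75, 8.97, 9.02 and 9.40 in sets 1 to 4 alone. The genes cdk9 (7.37, 8.47, 8.54 and 8.37) and supt16h (9.73, 10.23, 10.57 and 11.04), whose products act in transcript elongation, shared its low set. The splicing-linked gene rnps1 did so too (8.87, 10.14, 9.80 and 9.37), although its probe set in another cluster was lowest in set 4 (9.85, 10.03, 10.23 and 9.46).

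Named genes that were high in set 1 had varied functions. They were Xpo (11.38, 9.91, 10.69 and 10.18; a second Xpo member had sets 1 and 3 high, with 12.13, 10.88, 11.83 and 11.19), the splicing regulator gene rbm25 (10.13, 9.13, 8.77 and 9.08), the ubiquitin ligase adaptor gene wsb1 (11.57, 10.87, 10.62 and 10.40), the cell surface proteoglycan gene sdc4 (9.86, 9.26, 8.68 and 9.03), tmem16e and mp67-A-prov. The last name stands on probe sets of 11 other transcript clusters, so it does not identify a gene here. Probe sets for the other gene copy of sdc4 disagreed with each other. Those with set means of 5.33, 5.44, 6.09 and 6.41, and of 8.79, 8.86, 8.92 and 9.08, were lowest in set 1. The one with 9.42, 9.37, 8.91 and 9.18 was highest there.

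Set 2 was high for the brighter probe sets of the replicative helicase. The MCM2 to MCM7 proteins form the ring that unwinds DNA at replication forks, and 3 of their probe sets were members. The gene mcm2 measured 9.17, 10.12, 8.86 and 8.95 in sets 1 to 4 with mesoderm, and 8.93, 10.09, 8.94 and 9.03 in sets 1 to 4 alone, with both arrays of set 2 above the other 6. The genes mcm4 (cdc21 in the file; 7.98, 9.10, 7.75 and 7.84) and mcm6 (7.72, 8.83, 7.89 and 7.77) had the same high set.

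All 7 MCM probe sets above the level were highest in set 2, against 41.4% of all probe sets above the level. Their median deviations were -0.18, 0.65, -0.20 and -0.28 in sets 1 to 4. In the MCM list 7 of 7 met both limits, against 2269 of all 5246 above the level. Of these 7, 3 were members, against 8.81% of the 2269. This list was singled out after its values were seen and was not tested. The 4 that were no members had set 2 means of 10.07 (mcm5), 8.88 (mcm3), 9.84 (mcm6.2) and 10.42 (mcm7), against highest values in the other sets of 9.63, 8.40, 9.11 and 10.34. After a second quantile normalization or cyclic loess, 6 of the 7 were highest in set 2, against 27.7% and 24.9% of all probe sets above the level. Below the level, probe sets of mcm4, mcm6 and mcm7 were also highest in set 2. An mcm3 probe set (mean log2 5.07) was instead lowest in set 2, with 5.22, 4.72, 5.41 and 4.92. Another mcm6 probe set (mean 3.76) was highest in set 3. The wider list of cell cycle and replication genes had a smaller shift in set 2 (median 0.19 over 62 probe sets above the level, against 0.14 over all). Limma called 13 of its 57 probe sets that were no members higher in set 2 and 2 lower. Of all 5046 such probe sets above the level it called 791 higher and 320 lower. Over all 15491, at any level, the counts were 1638 higher (10.6%) and 1495 lower (9.65%).

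Not all replication genes followed set 2. The ribonucleotide reductase gene rrm2.2, whose product makes DNA precursors, was low in set 3 (11.53, 11.29, 10.28 and 10.96), as was the DNA repair gene brca1 (8.25, 8.60, 7.28 and 7.98). The array's hybridisation spikes, RNA added in fixed amount before hybridisation, averaged 9.07 with mesoderm and 9.28 alone in set 2, and between 10.15 and 10.50 in the other 6 arrays. Their part in the high values of set 2 was not tested.

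**Figure D5:**
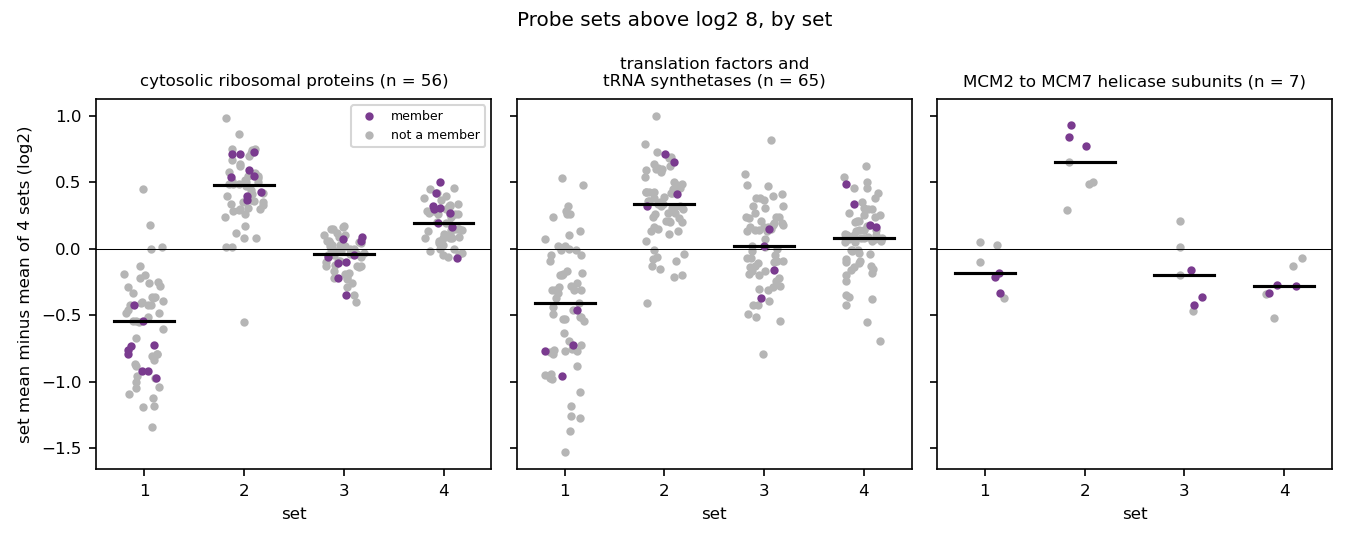
Deviation of each set mean from the mean of the 4 sets (log2) for probe sets above log2 8 of ribosomal proteins (n = 56), translation factors and tRNA synthetases (n = 65) and MCM2 to MCM7 (n = 7), with members in purple, other probe sets in grey and the median as a line. Ribosomal probe sets, members included, have their medians at -0.54 in set 1 and 0.48 in set 2, and the MCM probe sets at 0.65 in set 2.

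Set 2 was low for an RNA helicase gene with the largest named difference. The gene ddx46, whose product acts in spliceosome assembly, measured 9.68, 7.39, 10.47 and 10.05 in sets 1 to 4 with mesoderm, and 9.45, 7.77, 10.22 and 9.77 in sets 1 to 4 alone. Set 2 lay below every other array and 6.79-fold under set 3. A ddx46 probe set of another cluster, similarly bright, had set means of 9.65, 9.53, 9.81 and 8.96, lowest in set 4, and differed by 0.28 between sets 3 and 2, against 2.76 for the member. The genes rdd4 (12.94, 11.79, 13.48 and 12.51) and atg16l1, an autophagy gene (9.29, 7.61, 8.75 and 8.41), were low in the same set, although 5 other clusters also carry the name atg16l1 and only 2 of their 5 probe sets were lowest in set 2.

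The 2 probe sets with the largest SD of set means had no gene name and were again low in set 2. The first measured 9.89, 6.01, 10.99 and 11.29 in sets 1 to 4 with mesoderm, and 10.16, 5.68, 11.37 and 11.30 in sets 1 to 4 alone, a 43.7-fold difference between sets 4 and 2. The second had set means of 9.01, 6.13, 8.65 and 8.85, a 7.36-fold difference. Both were bright in 6 arrays and dim in the 2 arrays of set 2. The next in rank, MGC85245, which has only a clone name, was low in set 3 (9.16, 10.45, 7.44 and 9.62; 8.02-fold), and its 2 arrays differed by at most 0.06 within a set.

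Further genes shared the low set 3 of shh and hnf4a. Among them were itih2, for a heavy chain of a plasma protease inhibitor (8.60, 8.29, 7.10 and 9.31), shbg, for a steroid-binding plasma globulin (9.91, 9.93, 8.84 and 10.30), lmo7, for a protein of cell junctions (11.58, 11.61, 9.94 and 10.84), and anxa2, for a membrane-binding annexin (11.25, 11.34, 10.23 and 11.26). The kinase gene nek9 (8.76, 9.12, 7.73 and 8.80) and the methyl-cycle enzyme gene ahcy (10.44, 10.83, 9.69 and 10.75) were low there too. Their probe sets in other clusters were not: that of ahcy was highest in set 3 (8.06, 8.81, 8.91 and 8.44). That of nek9 differed little between sets (8.99, 8.94, 9.02 and 8.92). An anxa2 probe set for the other gene copy had 13.19, 13.26, 12.71 and 13.14, with the same highest and lowest sets and a difference of 0.55 in place of 1.11.

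The genes that were high in set 3 with bmp2 and tbx3 included gpnmb, for a membrane glycoprotein of pigment and macrophage-like cells in mammals (8.05, 7.46, 9.26 and 7.50). They also included chst11, for a chondroitin sulfotransferase (8.37, 7.89, 9.10 and 7.32), and alpl, for alkaline phosphatase (9.62, 9.32, 10.53 and 9.37). Both arrays of set 3 were above the other 6 for all 3 genes. The list of posterior endoderm markers had its highest median deviation in the same set (0.32 over 9 measured genes, against -0.36 in set 2), although 1 of the 9 was above the level limit and the list held 0 members. By medians this was not particular to that list. Most of the 13 marker lists were highest in set 3, among them pronephros (0.25), notochord (0.23) and pan-endoderm (0.21). The foregut and liver, cement gland and hatching gland, and blood and vascular lists were instead highest in set 4 (0.09, 0.56 and 0.15). The median of every list was lowest, or tied for lowest, in set 2. By summed intensity the posterior endoderm list was highest in set 3 (4080 with mesoderm, 3208 alone) and lowest in set 4 (1569 and 758). The cardiac and epidermis sums were also highest in set 3 in both conditions. Alone, the pan-endoderm and pronephros sums were instead highest in set 4 (22332 and 16383). The part of posterior endoderm in the set 3 values was not tested.

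Set 4 was low for further genes beside acvr1 and cxcr4. Among them were enah, for an actin regulator (9.91, 9.29, 9.69 and 8.60), rnd1, for a small GTPase that loosens adhesion (9.41, 9.02, 9.28 and 8.18; a probe set of the same cluster was instead lowest in set 2, with 10.47, 9.23, 10.17 and 9.94), and sema6d, for a semaphorin, with 2 probe sets (9.51, 9.32, 9.31 and 8.31, and 9.12, 9.15, 9.02 and 8.04). The gene gfpt1, for the first enzyme of hexosamine synthesis, was low in set 4 as well (10.63, 10.37, 11.09 and 9.57). Another gfpt1 probe set of the same cluster was instead lowest in set 2 (9.36, 8.55, 10.76 and 9.71). Of the 3 probe sets that were high in set 4 alone, none had a gene name.

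Genes that divided the sets in pairs had mixed functions. Sets 1 and 2 were above sets 3 and 4 for Epb4.1l3, a membrane skeleton gene (9.42 and 8.61, against 7.54 and 7.03), and for cast, which encodes calpastatin and is calp3 in the file (11.88 and 11.56, against 10.86 and 10.25). Sets 1 and 3 were above sets 2 and 4 for the uroplakin gene upk3a (8.98 and 9.47, against 7.83 and 8.03). Sets 2 and 4 were above sets 1 and 3 for lrpprc, which supports mitochondrial messenger RNA (8.91 and 8.70, against 7.85 and 8.14), and ciapin1, an iron-sulfur protein gene (9.12 and 9.25, against 8.12 and 8.44). Sets 3 and 4 were above sets 1 and 2 for eno1, a glycolytic enzyme gene (9.54 and 9.26, against 8.72 and 8.25). Sets 2 and 3 were above sets 1 and 4 for the tubulin gene tuba1c (11.80 and 11.62, against 10.74 and 10.67) and the polyamine enzyme gene odc1 (9.98 and 10.30, against 9.11 and 9.49).

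Other probe sets for the same genes, which the choice did not use, often failed to show the member's difference. For 44 names, 83 probe sets of other transcript clusters were on the array. Over these 83 the difference between the 2 sets that were highest and lowest for the member had a median of 0.15, against 1.36 for the members, 49 of 83 differed in the same direction, 10 differed at least 2-fold in it, and 20 had the same highest and lowest sets. Limma's F test called 31 of them different between sets (37.3%), against 30.7% of all probe sets and 42.3% of those above the level. Leaving out 5 names that stood on 4 or more other clusters, 29 of 51 differed in the same direction and 24 were called (47.1%).

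Ribosomal and MCM genes had both agreeing and disagreeing probe sets. For rpl4 another cluster differed by 1.54 between sets 2 and 1 (10.87, against 9.33), for rps3 by 1.11 (12.16, against 11.04), and for mcm4 by 1.05 between sets 2 and 3 (7.04, against 5.99). Dimmer probe sets of other clusters did not show the member's difference for rps10 (-0.42, mean log2 6.30), rpl34 (-0.42, mean 4.00), rpl4 (-0.07, mean 3.98) and mcm6 (-0.06, mean 3.76). An Xpo probe set of another cluster differed by 4.35 between sets 1 and 2, more than the member did, with set means of 8.23, 3.88, 7.89 and 5.25 and thus set 3 high too. An opposite difference was found for armc1, where a probe set of another cluster had set 1 below set 3 (7.85, against 8.97). For armc1 the probe sets of 1 gene name therefore disagreed on the order of the sets.

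The presence of mesoderm made little difference to the 200 by construction. The mean difference of arrays with mesoderm minus arrays alone ranged between -0.29 and 0.21 with a median of -0.01, and 95 of the 200 were above 0. Limma called none of them for mesoderm, as of the whole table (0% higher and 0% lower; before adjustment, 203 were higher and 181 lower with p under 0.05, and 0 of the 200 had such a p). With the set as a block, 0.258% of all probe sets were called higher and 0.129% lower, and again none of the 200 (2 of them had an unadjusted p under 0.05).

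Whether set order carries over between conditions was examined with probe sets chosen on 1 condition and looked up in the other, with no limit on the difference within a set. Of the 200 with the largest SD over the 4 arrays with mesoderm, 15 were among those described above. In the arrays alone, 174 of these 200 had the same lowest set (60.7% over all probe sets above the level), 111 the same highest set (58.8%) and 93 both (34.8%). The difference between the chosen sets had a median of 2.44 with mesoderm and 1.90 alone, and 3 of 200 were opposite. Chosen on the arrays alone, 175 had the same lowest set with mesoderm, 105 the same highest set and 89 both, and the median was 1.77 with mesoderm and 2.48 alone.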

How the data were processed

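RNA of 8 samples (4 with mesoderm, 4 endoderm alone) was measured on 1 Affymetrix array each. The authors deposited 1 linear intensity per probe set and array, made with RMA per the submitters' processing notes (version not given in the sources used here). The file header names 2 data sets, so the values may have been normalized together with other arrays. The deposited series matrix held identical values in 124888 of 124888 cells. Array medians lay between 127.5 and 131.2, and the number of arrays limits the precision.

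Values were converted to log2. Of 15611 probe sets, 120 controls were left out, as were 2 wrapped annotation fragments. Names came from the file and were updated through a RefSeq gene table (Xenopus laevis v10.1). In all, 5880 probe sets had a name (3966 names) and 9611 had none. Sequences were not used here.

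Limma 3.58.1 in R 4.3.3 was fitted to all 15491 probe sets, with Benjamini-Hochberg adjustment and a threshold of 0.05, after a check on simulated data. The F test over sets had condition as a covariate. Each set was also set against the mean of the other 3. The mesoderm comparison had no block, with the set as a block as an alternative. Set numbers paired the arrays: same-numbered arrays correlated at 0.84, 0.85, 0.69 and 0.32 in their deviations from the condition means.

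The members, the 22 function lists (by symbol pattern) and the 13 marker lists were chosen with earlier results of these data known. Symbol patterns that caught unrelated genes were corrected after the values were seen, and the MCM list, the per-set contrasts with their leave-outs and the lookup of other probe sets were added then. Genes named were the 20 named members with the largest SD, the first 6 named ones of each split with at least 10 members, up to 4 members per function list, the probe sets beside rank 200, and the other probe sets of members' genes. Members named outside these groups were chosen after their values were seen.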

Additional observations from a re-analysis of the deposited data

Results flagged for a closer look

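Dixon's ratio (the gap of the highest or lowest array to its neighbour, divided by the range of the 4 arrays) was computed for the 20 named members with the largest SD in each condition. Of 40 groups of 4 arrays, 3 passed its 95% critical value; chance gives about 1 in 20. All 3 stand on set differences that the choice of members favours. For psma6 the array of set 1 with mesoderm was lowest (ratio 0.98; 7.79, against 9.06 to 9.09 in the other 3). For pabpc1 the array of set 1 with mesoderm was lowest (0.883; 11.70, against 12.73 to 12.86). For bmp2 the array of set 3 alone was highest (0.916; 9.47, against 7.55 to 7.72).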

How the results depend on the processing

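Membership depended on the limits more than on the ranking. Of the 200 probe sets, 119 were kept with a level limit of 7 and 105 with 9, 82 with a difference limit of 0.3 and 127 with 0.5, 19 with none, 114 after a second quantile normalization, 112 after cyclic loess, and, with no difference limit and only the arrays of 1 condition, 15 (with mesoderm) and 17 (alone). With both limits kept and only the SD taken over 1 condition, 162 (with mesoderm) and 175 (alone) were kept. Leaving out each set in turn kept between 41 (without set 4) and 127. With centred medians 184 were kept, with the range in place of the SD 179, and with the series matrix 200. Splits held better: 178 of 200 after quantile normalization and 172 after loess, and the size of the largest split stayed between 33 and 40. Ranges of the 20 named members with the largest SD moved by over the spread within a set in 5 of 80 values, and none reversed. The series matrix holds the same values as the main input, so that setting could change neither membership nor splits nor ranges. The number of probe sets that differ between sets (4763) was 2400 among those above log2 8, 1186 at a threshold of 0.01 and 7208 at 0.1. Leave-outs gave between 1192 and 10602: 1463, 1650, 3058 and 9716 without sets 1 to 4, then 1223, 1379, 2999 and 9813 without 1 array with mesoderm, and 1192, 1855, 2637 and 10602 without 1 array alone. The number called for mesoderm was 0, but 60 with the replicate block and 82 with the set as a random effect, and it was 0 or 1 in the leave-outs (1 without set 4 or its array with mesoderm). The block changed no other call here. After quantile normalization and loess, the ribosomal medians were -0.36 and -0.37 in set 1 and 0.32 in set 2 under both, where the median of all probe sets above the level in set 2 was 0.03 and 0, against 0.14 as deposited. The causes of these changes were not tested. Depth has no counterpart on arrays, and with 2 arrays per set, in different conditions, no set has a spread of its own.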
